A study of Mus musculus with 15 samples.

Results

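Olfactory receptor promoters were compared here between 2 cell lines by methylated DNA immunoprecipitation (MeDIP), in which an antibody against methylated cytosine pulls down methylated fragments before they are hybridised to a promoter array. A member was any GeneName starting with Olfr with at least 3 non-control probes, and 618 of the 13633 GeneNames tested met this rule. The arrays carried 653 Olfr names with 3310 probes in all, and 35 of these names had too few probes. Of the members, 297 lay on part 1 of the array set and 321 on part 2, and 15 had names that join 2 genes, such as Olfr389-Olfr390. A member had a median of 5 probes, between 3 and 20, and the members lay on 17 chromosomes.

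The lines were J1, wild-type embryonic stem (ES) cells of the mouse, and TKO, ES cells deficient in DNA methylation, a name used in the field for cells lacking Dnmt1, Dnmt3a and Dnmt3b, the DNA methyltransferases. Both were grown with serum and LIF and kept off feeder cells for 2 passages, and 2 ug of DNA went into each immunoprecipitation. Each part had 7 arrays, with both lines on every array. The series text describes the replicates as different passages. The labels, however, give passage 37 for both replicate 1 and replicate 3 of part 1, and no passage for the other arrays. RNA of the same cultures was compared on 3 arrays. On all 14 MeDIP arrays the labels put J1 in the green dye and TKO in the red dye, so dye and line cannot be told apart.

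Values are log2 ratios of labelled J1 over labelled TKO, with 0 at the median of each array's probes. A value below 0 thus lies on the labelled TKO side relative to the typical probe, and an overall loss of methylation is removed by this centring. The promoter of Asz1, a germ cell gene known as methylated in ES cells, read from -0.96 to -0.42 over the 7 arrays, with a mean of -0.65 ± 0.19 (SD, n = 7). That sign is opposite to what the labels would give for a promoter methylated in J1 alone, so sides are named by the labels throughout and are not read as gain or loss of methylation. The Asz1 probes were dim, at -1.23 on the log2 scale relative to the array median. Promoters of the germ cell genes Dazl and Sycp3, brighter at 0.76 and -0.12, had means of -0.15 ± 0.11 and -0.34 ± 0.11 (SD, n = 7 each). Under the normexp processing described below, Asz1, Dazl and Sycp3 read -0.17, -0.17 and -0.020.

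Olfactory receptors are the odour-detecting G protein-coupled receptors of the nose and form the largest gene family of the mouse, arranged in clusters along many chromosomes. Each olfactory sensory neuron expresses 1 allele of 1 receptor gene, and other cells keep these genes silent, largely in repressive chromatin. Receptor promoters are rich in A and T and poor in CpG, the dinucleotide that mammalian DNA methyltransferases act on, and a MeDIP signal depends on how many methylated CpGs a fragment holds.

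How little CpG stands before these genes is seen in their sequence. Shown are the 250 bases upstream of the RefSeq start in GRCm38.p6, read 5′ to 3′ on the gene's strand, with each CpG in capitals. The first 4 belong to the lowest ratios and the next 4 to the highest ratios among the named members that have an entry, leaving out chromosome 8. Olfr750 was added after its values were seen, for its many CpGs.
Olfr275, chr4:52825149-52825398, plus strand: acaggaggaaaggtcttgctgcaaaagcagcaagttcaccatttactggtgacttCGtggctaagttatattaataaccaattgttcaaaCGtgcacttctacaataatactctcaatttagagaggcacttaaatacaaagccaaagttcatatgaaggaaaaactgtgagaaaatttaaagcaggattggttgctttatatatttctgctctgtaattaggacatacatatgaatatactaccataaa
Olfr113, chr17:37575422-37575671, minus strand: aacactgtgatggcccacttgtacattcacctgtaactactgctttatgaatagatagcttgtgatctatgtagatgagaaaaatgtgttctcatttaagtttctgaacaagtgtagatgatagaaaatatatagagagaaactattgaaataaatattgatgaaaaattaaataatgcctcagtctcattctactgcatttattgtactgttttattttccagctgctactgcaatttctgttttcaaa
Olfr173, chr16:58797943-58798192, minus strand: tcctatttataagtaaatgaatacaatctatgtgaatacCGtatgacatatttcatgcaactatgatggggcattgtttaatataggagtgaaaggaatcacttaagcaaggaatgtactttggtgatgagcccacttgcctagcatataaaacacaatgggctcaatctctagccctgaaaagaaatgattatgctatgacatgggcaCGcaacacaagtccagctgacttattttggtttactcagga
Olfr518, chr7:108881605-108881854, minus strand: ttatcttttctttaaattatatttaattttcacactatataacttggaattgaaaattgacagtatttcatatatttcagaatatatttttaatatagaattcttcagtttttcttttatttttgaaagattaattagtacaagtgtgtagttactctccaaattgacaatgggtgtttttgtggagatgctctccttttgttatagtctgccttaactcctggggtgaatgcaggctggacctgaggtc
Olfr385, chr11:73589737-73589986, minus strand: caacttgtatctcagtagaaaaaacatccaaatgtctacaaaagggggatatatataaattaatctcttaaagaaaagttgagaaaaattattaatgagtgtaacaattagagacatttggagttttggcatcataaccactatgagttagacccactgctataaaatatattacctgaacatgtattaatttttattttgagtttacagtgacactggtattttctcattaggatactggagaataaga
Olfr393, chr11:73848124-73848373, minus strand: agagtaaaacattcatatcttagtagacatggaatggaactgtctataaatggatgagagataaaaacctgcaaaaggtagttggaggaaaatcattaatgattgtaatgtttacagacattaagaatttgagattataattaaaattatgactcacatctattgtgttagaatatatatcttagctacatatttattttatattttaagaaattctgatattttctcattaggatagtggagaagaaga
Olfr381, chr11:73486823-73487072, minus strand: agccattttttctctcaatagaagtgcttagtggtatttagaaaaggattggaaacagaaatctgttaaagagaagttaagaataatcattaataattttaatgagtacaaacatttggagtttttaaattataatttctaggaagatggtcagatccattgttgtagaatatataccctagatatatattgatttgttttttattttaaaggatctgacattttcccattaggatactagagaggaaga
Olfr519, chr7:108894406-108894655, minus strand: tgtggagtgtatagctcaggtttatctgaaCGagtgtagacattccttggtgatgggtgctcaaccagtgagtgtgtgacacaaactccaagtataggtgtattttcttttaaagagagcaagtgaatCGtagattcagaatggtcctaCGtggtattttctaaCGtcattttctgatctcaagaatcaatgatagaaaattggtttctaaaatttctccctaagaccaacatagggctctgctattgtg
Olfr750, chr14:51071443-51071692, minus strand: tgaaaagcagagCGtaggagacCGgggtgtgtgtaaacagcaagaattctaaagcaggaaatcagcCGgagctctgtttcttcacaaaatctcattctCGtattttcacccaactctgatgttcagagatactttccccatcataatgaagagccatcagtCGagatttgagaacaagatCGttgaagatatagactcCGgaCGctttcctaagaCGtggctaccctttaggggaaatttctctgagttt

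The upstream sequences of Olfr385, Olfr393 and Olfr381, from the chromosome 11 cluster with the highest ratios, held 0 CpG, as did those of Olfr113 and Olfr518. Those of Olfr275 and Olfr173 held 2 CpGs each, that of Olfr519 held 4 and that of Olfr750 held 9. Low and high ratios were thus found on CpG-free sequence alike. The array's tiled region need not coincide with this window, since no source used here names the build of the array's positions.

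RefSeq windows of 300 bases, which add 50 bases after the start, were found for 511 members through their accession or symbol. The members' windows held a median of 1 CpG and a GC content of 35.3%, against 17 CpGs and 59.3% for 6289 other genes of the arrays. No CpG at all was present in 180 member windows (35.2%), against 5.82% of the 27025 genes with a RefSeq window. The motif TAATTA, the core of the homeodomain sites known from receptor promoters, was found in 91 member windows (17.8%) against 5.40% of all windows. The motif CCCNNGGG, the core of the Olf1/EBF site, was found in 16 (3.13%) against 13.5%. Both motifs read the same on either strand and were searched as exact letters, so a match is a description of sequence only. The fixed letters of TAATTA are all A or T and those of CCCNNGGG all G or C. Median GC content was 35.3% in member windows and 52.7% in all windows. The shares were not corrected for this, so they show neither an excess nor a lack of sites.

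The receptor promoters were centred below the rest of the arrays. Their median ratio was -0.17, with quartiles of -0.28 and -0.061, against 0.00096 for the 13015 other GeneNames. Of the 618 members, 523 had a mean below 0 and 95 a mean above 0. Of members, 24 (3.88%) were called on the labelled TKO side by limma with Benjamini-Hochberg adjustment over all GeneNames, at an adjusted p under 0.05 and a mean at least 0.5 from 0; 2.05% of all GeneNames were. No member was called on the labelled J1 side, against 0.066% of all, and 20 passed there at the adjusted p alone. At the adjusted p alone, 367 members (59.4%) lay on the labelled TKO side, where 31.4% of all GeneNames did, and the 20 on the labelled J1 side (3.24%) compare with 25.3%. All 7 arrays were below 0 for 228 members and above 0 for 14, with backgrounds of 24% and 19.3%.

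**Figure D1:**
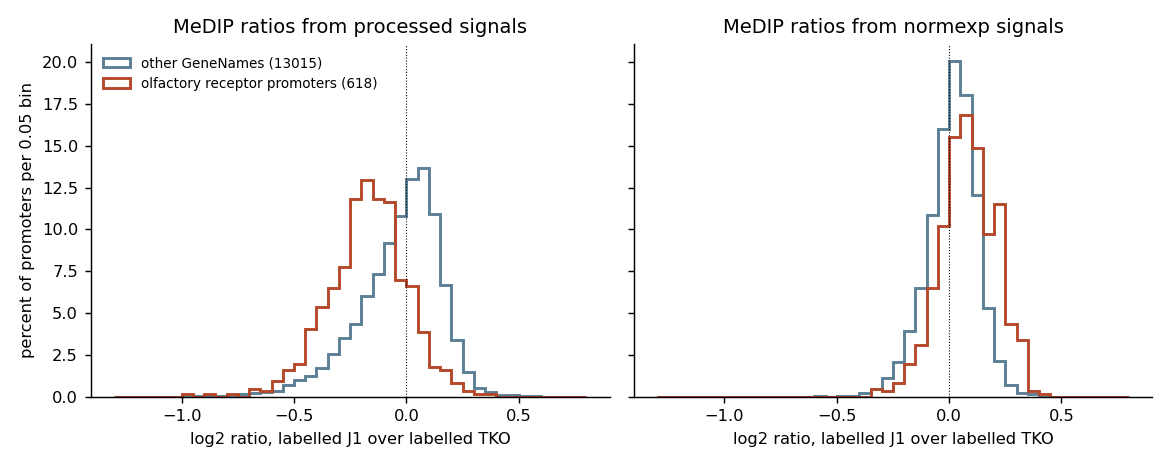
Distribution of mean log2 ratios (x axis, labelled J1 over labelled TKO) as percent of promoters per bin (y axis) for receptor promoters and for all other GeneNames, from processed signals (left) and from normexp signals (right). Receptor promoters are shifted below the others on the left, with medians of -0.17 and 0.00096, and above them on the right, with medians of 0.086 and 0.022.

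This position depended on the signal processing. The scanner's processed signals are corrected for background and dye together. With them replaced by normexp, which models background and adds an offset of 50, and median centring with no dye correction by intensity, the receptor median was 0.086 against 0.022 for the others, and no member was called on either side. At the adjusted p alone 45 members then passed below 0 and 44 above it, with backgrounds of 13.7% and 15.7%. With normexp and loess, which again corrects dye by intensity, the receptor median was -0.030. At the adjusted p alone 228 members were then below 0 and 49 above, with backgrounds of 28.8% and 27.3%. From here on, normexp alone stands for normexp with median centring.

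The receptor median was below 0 on all 7 arrays of part 1, from -0.24 on replicate 4 to -0.14 on replicates 6 and 7. On part 2 it was below 0 on 6 of 7 arrays, from -0.24 on replicate 2 to -0.13 on replicate 7, and replicate 6 stood apart at 0.031. On that array 43.9% of the members were below 0, against 72.0% to 89.1% on the other part 2 arrays. Without replicate 6 in both parts the receptor median was -0.18 and 34 members were called. Between arrays, the members' ratios had a median Pearson correlation over 21 array pairs of 0.44 on part 1 and 0.50 on part 2, against 0.72 for other GeneNames on each part; the pairs share members and the points share depth of signal, so this is a description.

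Receptor probes were dim in both channels. Over 3263 member probes the median log2 signal relative to the array median was -2.07 in green and -1.95 in red, against 0.075 and 0.070 for 77257 other probes. Readings well above background made up 80.6% of green and 84.3% of red readings, against 96.9% and 97.9% elsewhere, and 57.9% of member probes were well above background in both channels on all 7 arrays, against 89.2%. With uncorrected mean signals the median brightness was -1.23, against -2.01 with processed signals. At least 3 such probes remained for 378 members, whose median ratio over those probes was -0.094 with 3 calls.

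Brightness alone placed most members among dim promoters. When all GeneNames were split into quintiles by mean brightness, 483 of 618 receptor promoters fell into the dimmest quintile, and all 24 calls came from it. Within that quintile the receptor median was -0.18 and that of 2244 others -0.15, and the called share was 4.97% of receptors against 8.38% of others. Under normexp the values in this quintile were 0.11 and 0.062. In the dimmest quintile, receptor and other promoters therefore lay on the same side of 0 under each processing.

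In the 4 brighter quintiles the receptor promoters lay below the others under both processings. The 135 receptor promoters there had a median of -0.13 against 0.022 for 10771 others, and under normexp -0.028 against 0.015. The difference of medians was below 0 on all 14 arrays, from -0.21 on replicate 2 of part 2 to -0.047 on replicate 6 of part 2. For all 7 replicate numbers the arrays of the 2 parts share a scan day, so the 14 arrays need not be independent. No member of these quintiles was called with the size threshold, and at the adjusted p alone 81 (60%) passed below 0 and 7 (5.19%) above it, against 24.9% and 29.8% of the others there. These groups still differ in CpG and GC content, and the part of sequence in the difference was not tested.

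**Figure D2:**
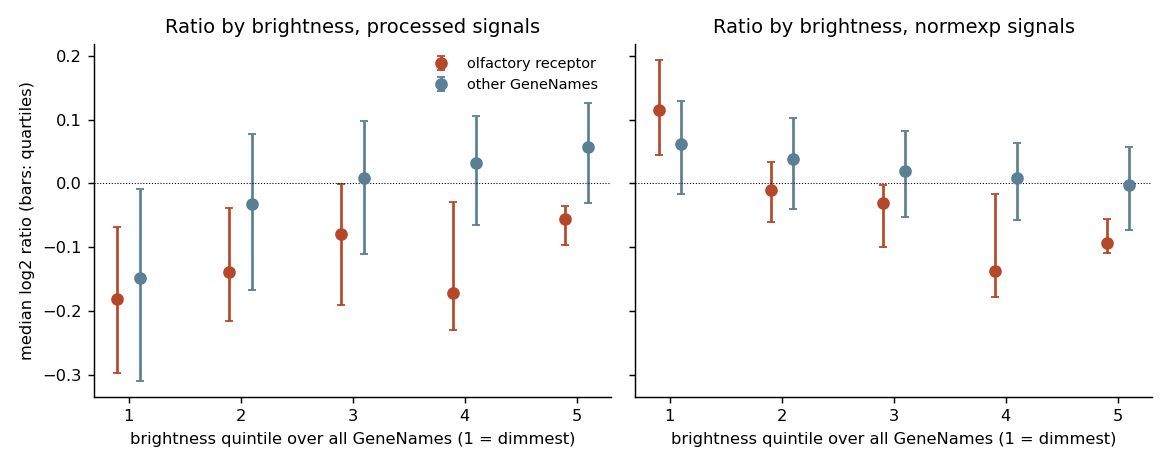
Median log2 ratio (y axis, bars from lower to upper quartile) of receptor promoters and other GeneNames in quintiles of brightness (x axis, the dimmest first), from processed signals (left) and normexp signals (right). In the dimmest quintile the receptor median is -0.18 against -0.15 on the left and 0.11 against 0.062 on the right, and in each brighter quintile it lies below the others in both panels.

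Brightness changed sharply at the start of the gene. Olfactory receptor coding sequence mostly lies in 1 exon, and the tiled regions reach from upstream DNA into the gene. The 2254 member probes annotated as upstream had a median brightness of -2.73 on the log2 scale and the 907 annotated inside the gene one of 0.015. Among 546 members with both kinds, inside probes were the brighter ones in 519 with processed signals and in 509 with uncorrected ones, by a median log2 difference of 2.67 and 1.42. The size of the difference thus depends on the background step, and 45.6% of upstream probes against 90.0% of inside ones were above background in both channels on all arrays. In other genes the difference was 0.84, and inside probes were brighter in 69.3% of 10609.

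The ratio differed between the same probes in opposite directions under the processings. With processed signals the inside ratio was the higher in 370 of 546 members, with medians of -0.066 inside and -0.19 upstream. With normexp it was the higher in 104 of 546, with medians of -0.022 inside and 0.14 upstream. Inside the genes, where probes were as bright as the array's median, the receptor median was thus below 0 under both processings. By distance, member probes in the 250 bases after the start had a median ratio of -0.035, those in the next 250 bases -0.15, and those in the 250 bases before the start -0.16. Other genes read 0.065, 0.075 and 0.070 in these intervals.

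**Figure D3:**
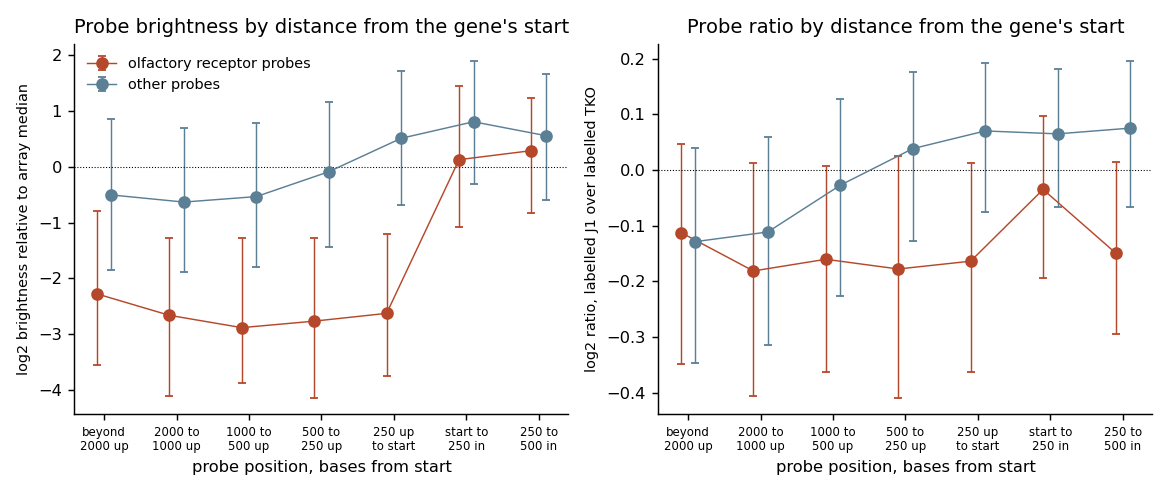
Median probe brightness (left, log2 relative to the array median) and median log2 ratio from processed signals (right) by distance from the gene's start in bases (x axis), with bars from lower to upper quartile, for receptor probes and other probes. Receptor probes upstream sit near -2.7 in brightness and those past the start near the array median, with 0.13 in the first 250 bases.

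The lowest member was Olfr275 on chromosome 4, with 5 probes. Its ratio ran from -1.52 through a median of -0.91 to -0.61 over the 7 arrays, all below 0, with a mean of -0.97 ± 0.28 (SD, n = 7) and a limma adjusted p of 1.4e-05. Its mean signals were 107 in green and 207 in red, against array medians of 848 and 845, and 2 of its 5 probes were above background in both channels on every array. Under normexp its mean was -0.17, with a limma adjusted p of 0.041.

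Olfr893, in the large chromosome 9 cluster, ran from -1.53 through -0.80 to -0.54, with a mean of -0.89 ± 0.33 (SD, n = 7). Olfr113, on chromosome 17, ran from -1.16 through -0.83 to -0.41, with a mean of -0.76 ± 0.27 (SD, n = 7). Olfr173, on chromosome 16, ran from -0.91 through -0.64 to -0.35, with a mean of -0.68 ± 0.19 (SD, n = 7). All 7 arrays were below 0 for each of these genes. Each had 1 probe above background in both channels on all arrays, and under normexp their means were 0.047, -0.011 and 0.20.

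Olfr518, on chromosome 7, ran from -1.05 through -0.68 to -0.41, and Olfr750, on chromosome 14, from -0.87 through -0.69 to -0.46. Their means were -0.68 ± 0.22 and -0.66 ± 0.15 (SD, n = 7 each), with all arrays below 0. Under normexp Olfr518 kept a limma adjusted p of 0.0098 at -0.16, and Olfr750, the member with the most CpGs in its window, read -0.053. Olfr1454 on chromosome 19 had a mean of -0.62 ± 0.20 and Olfr589 on chromosome 7 one of -0.60 ± 0.28 (SD, n = 7 each). Under normexp these read 0.071 and 0.010. Of the 8 lowest members, Olfr275 and Olfr518 thus passed under normexp with median centring. With normexp and loess all 8 stayed below 0 and passed, from -0.27 for Olfr275 to -0.078 for Olfr173. The size threshold fell between Olfr318 at -0.51 and Olfr201 at -0.50, both of which had all 7 arrays below 0.

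At the other end, 6 members were the highest among those with all 7 arrays above 0. Olfr385 on chromosome 11 ran from 0.11 through 0.35 to 0.66, with a mean of 0.36 ± 0.20 (SD, n = 7) and a limma adjusted p of 0.00053. All of its 6 probes were above background in both channels on every array, and under normexp it read 0.33 with a limma adjusted p of 0.031. Its neighbours Olfr393, Olfr381 and Olfr376 had means of 0.29 ± 0.16, 0.25 ± 0.18 and 0.22 ± 0.15 (SD, n = 7 each). Under normexp they read 0.27, 0.30 and 0.23, of which Olfr381 did not pass, at a limma adjusted p of 0.087.

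Olfr373 and Olfr371, both on chromosome 8, had means of 0.32 ± 0.085 and 0.23 ± 0.17 (SD, n = 7 each). Olfr373 had 11 probes, all above background on every array, and read 0.24 under normexp with a limma adjusted p of 0.0016. The 4 receptor promoters of chromosome 8 had a median of 0.12, and the other GeneNames of that chromosome one of 0.10; of the 17 chromosomes the next highest in other GeneNames was chromosome 11, at 0.023. Under normexp these were 0.10 and 0.082. The other GeneNames of chromosome 8 thus stood almost as high, and their part in the receptor values was not tested.

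**Figure D4:**
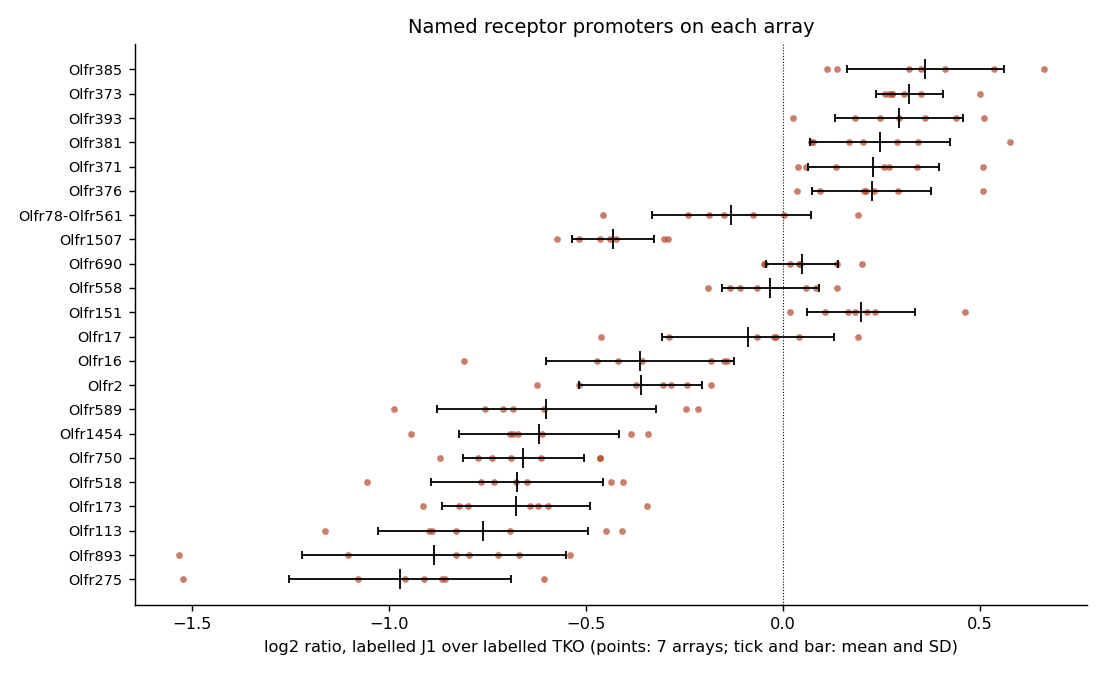
Log2 ratios (x axis, labelled J1 over labelled TKO, processed signals) of the lowest, the well studied and the highest receptor promoters (y axis), 1 point for each of 7 arrays, with the mean and SD in black. All 7 points of the 8 lowest lie below 0 and all 7 of the 6 highest above 0, with means from -0.97 for Olfr275 to 0.36 for Olfr385.

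Well studied receptors lay between -0.43 and 0.20. Olfr1507, a receptor whose choice depends on the H enhancer, ran from -0.57 through -0.44 to -0.29 with a mean of -0.43 ± 0.10 (SD, n = 7), all arrays below 0. Olfr16, a receptor for lyral that is also known from sperm, had a mean of -0.36 ± 0.24, and Olfr2, the octanal receptor, one of -0.36 ± 0.16 (SD, n = 7 each). Both had all 7 arrays below 0. Under normexp these 3 read -0.0010, -0.022 and -0.032, and none passed.

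Olfr151, the acetophenone receptor used in many axon-guidance studies, ran from 0.018 through 0.18 to 0.46, with all 7 arrays above 0 and a mean of 0.20 ± 0.14 (SD, n = 7, limma adjusted p of 0.0036). Under normexp it read 0.26 at a limma adjusted p of 0.052. Olfr558 and Olfr690, class I receptors of small acids, had means of -0.032 ± 0.12 and 0.049 ± 0.091, and Olfr17 one of -0.090 ± 0.22 (SD, n = 7 each). The joint name Olfr78-Olfr561, which holds the short-chain fatty acid receptor Olfr78, had a mean of -0.13 ± 0.20 (SD, n = 7). The arrays of these 4 lay on both sides of 0 and none passed, with limma adjusted p of 0.091 or more. Olfr73, Olfr160 and Olfr544 were not among the members.

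Members closer than 1 Mb formed 46 groups, of which 17 held at least 10 members and 525 in all. In 16 of these 17 clusters the median was below 0, and in all of those it was lower than the median of other GeneNames on the chromosome. Under normexp the medians of Olfr56 to Olfr1380, Olfr30 to Olfr223 and Olfr522 to Olfr541 were below 0. Each remaining cluster then had a median above 0 and above that of other GeneNames on its chromosome. For Olfr1417 to Olfr1504 on chromosome 19 these were 0.18 and 0.038. The lowest was Olfr30 to Olfr223 on chromosome 11, with 10 members, a median of -0.31 and all members below 0, from Olfr318 at -0.51 to Olfr323 at -0.095. Its 7 array medians ran from -0.37 to -0.21. The 18 other genes between its ends had a median of 0.0082. Under normexp the cluster median was -0.011 and theirs 0.028.

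The largest cluster, Olfr550 to Olfr692 on chromosome 7, holds the class I receptors, the family branch shared with fish. Its 87 members had a median of -0.14, from Olfr589 at -0.60 to Olfr692 at 0.19, with 1 call and all 7 array medians below 0. The neighbouring chromosome 7 cluster, Olfr693 to Olfr519, had 43 members, a median of -0.15 and ends at Olfr518 (-0.68) and Olfr519 (0.19), genes next to each other in the list. The 71 members of Olfr151 to Olfr985 on chromosome 9 had a median of -0.19 and 3 calls, from Olfr893 at -0.89 to Olfr151 at 0.20. The 60 members of Olfr996 to Olfr1506 on chromosome 2 had a median of -0.22 and 4 calls, from Olfr1036 at -0.60 to Olfr1506 at 0.14. Of all GeneNames 2.05% were called, and of the other GeneNames in the dimmest quintile 8.38%. The few calls per cluster are thus not read as a trait of a cluster.

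Of the remaining clusters, 11 had medians between -0.22 and -0.12. Their lowest members were Olfr427 (-0.43), Olfr820 (-0.48), Olfr1391 (-0.47), Olfr750, Olfr173, Olfr113, Olfr1454, Olfr338 (-0.32), Olfr446 (-0.57), Olfr523 (-0.33) and Olfr850 (-0.45). Their highest members were Olfr424 (0.00090), Olfr824 (0.23), Olfr1394 (0.0023), Olfr738 (-0.0058), Olfr177 (0.049), Olfr124 (0.15), Olfr1457 (0.19), Olfr347 (0.13), Olfr447 (0.080), Olfr536 (0.0014) and Olfr843 (0.11). Among them, Olfr522 to Olfr541 on chromosome 7 had bright probes, a brightness of -0.25, and stayed below 0 under normexp, at -0.091 with 12 of 13 members below 0.

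The exception was Olfr376 to Olfr411 on chromosome 11, with 19 members, a median of 0.033 and 10 members above 0, from Olfr403 at -0.44 to Olfr385. Its 7 array medians were below 0 on 5 arrays and ran from -0.12 to 0.29, the highest again on replicate 6. Along the chromosome the cluster fell into a pair of stretches, split after the values were seen. The first 10 members, Olfr376 to Olfr394, spanned 516 kb and had a median of 0.20 with 9 above 0, and their median was above 0 on all 7 arrays, from 0.034 to 0.51. The other 9, Olfr398 to Olfr411, had a median of -0.19 with 1 above 0, and their median was below 0 on all 7 arrays, from -0.26 to -0.061. Both stretches had like brightness, -1.19 and -1.17. Under normexp the first stretch read 0.27, with all 10 members above 0, and the second 0.065. Within the first, Olfr392 stood alone below 0, at -0.38 ± 0.13 (SD, n = 7), with 1 of 5 probes above background in both channels on all arrays and 0.20 under normexp.

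**Figure D5:**
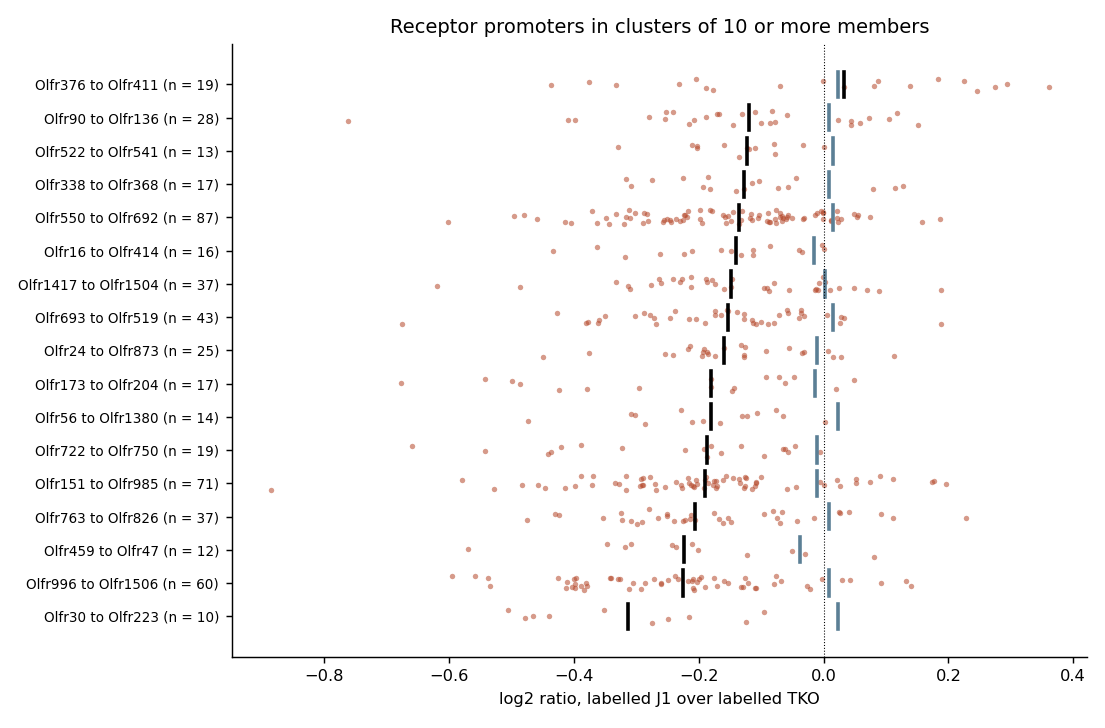
Log2 ratio of each member (x axis, labelled J1 over labelled TKO, processed signals) in the 17 clusters of at least 10 members (y axis), with the cluster median in black and the median of the chromosome's other GeneNames in blue. In 16 clusters the black line lies below 0, from -0.31 to -0.12, and for Olfr376 to Olfr411 it lies at 0.033.

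Genes that are not receptors inside the clusters gave a local comparison. The 85 such GeneNames had a median of -0.073 against -0.17 for the 525 clustered receptors, and were brighter, at -0.75 against -1.98. The 35 of them in the dimmest quintile had a median of -0.12 and the 50 brighter ones 0.0063. Neighbouring receptors correlated weakly in ratio, with a Pearson r of 0.13 over 572 neighbour pairs. Under normexp that value was 0.51, and brightness itself gave 0.46. Neighbours share local base composition, so these are descriptions.

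Across members the ratio followed CpG number weakly. Promoters whose RefSeq window held no CpG had a median of -0.13 (180 members), those with 1 CpG -0.17 (155), those with 2 CpGs -0.19 (98), those with 3 CpGs -0.19 (45) and those with 4 or more -0.23 (33). Under normexp the medians also fell, from 0.13 at 0 CpG to -0.00071 at 4 or more. The Spearman correlation of CpG count and ratio was -0.20 over 511 members, and -0.33 under normexp. Brightness rose along the same order, from -2.01 to -1.09, and in the 4 brighter quintiles the medians of the same groups ran between -0.15 and -0.11 in no order. Under normexp the brighter groups read 0.015, -0.018, -0.052, -0.095 and -0.028 from 0 CpG to 4 or more, falling up to 3 CpGs. GC content had a Spearman correlation of 0.48 with brightness, 0.088 with the ratio and -0.39 with the normexp ratio.

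Other multigene families of silent, tissue-restricted genes lay on the same side. The 77 vomeronasal receptor promoters, which serve pheromone detection, had a median of -0.13 with 6 calls (7.79%). The 30 taste receptor promoters had a median of -0.21 with 0 calls, and the 8 keratin-associated protein promoters -0.21 with 0 calls. The called share was 3.88% of olfactory receptor promoters and 2.05% of all GeneNames. At the adjusted p alone 38 (49.4%), 24 (80%) and 7 (87.5%) of these families lay on the labelled TKO side. The shares were 59.4% for olfactory receptor promoters and 31.4% for all GeneNames. The vomeronasal and taste receptor promoters were about as dim as the olfactory ones, at -1.84 and -2.16 against -1.90, and the keratin-associated ones were brighter, at -0.70. Under normexp the medians of these families were 0.042, 0.045 and -0.0070.

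Genes that work with the receptors were bright and mostly near 0 on the promoter arrays. Of 24 listed genes for signal transduction, receptor transport and receptor choice, 12 were tested, with a median ratio of 0.055 and a median brightness of 0.94. At the adjusted p alone 4 passed above 0 and 1 below it, where 25.3% and 31.4% of all GeneNames did, and none reached the size threshold. Ebf1, a regulator of olfactory neuron genes, read 0.22 ± 0.16, and Atf5, a factor in receptor feedback, 0.19 ± 0.080, both above 0 on all 7 arrays (SD, n = 7 each). Lhx2, a homeodomain regulator of receptor genes, read 0.11 ± 0.098, and Cnga2, a subunit of the olfactory cation channel, -0.15 ± 0.12 (SD, n = 7 each). Under normexp Ebf1 alone of these 4 passed, at 0.17.

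For most receptor probes RNA was near the background of the expression arrays in both lines. The median log2 brightness of receptor probes was 6.26, against 8.07 for other probes, and the highest was 12.1. Of 923 receptor probes for 882 genes, 643 (69.7%) were well above background in neither line on any of the 3 arrays, against 30.4% of other probes. On all 3 arrays 19 (2.06%) were above background in J1 and 12 (1.30%) in TKO. Of other probes 38.6% and 36.8% were. Markers of ES cells (Pou5f1, Sox2, Zfp42 and Esrrb) were above background in both lines on all 3 arrays. Among markers of olfactory sensory neurons, Omp, Gnal, Cnga2 and Stoml3 were not above it on all 3 arrays in either line, while Adcy3 was in both. Detection does not make the lines equal. In the RNA ratios described next, Pou5f1, Sox2 and Esrrb passed as lower in TKO, at -0.72, -0.80 and -0.45. Zfp42, at 0.15, did not pass. Pou5f1, Esrrb and Zfp42 had values on 2 arrays.

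RNA ratios are log2 of TKO over J1 after normexp and loess, with the direction likely rather than settled, since the series text states that replicate 2 was dye-swapped but not which dye the others used. The direction was taken from RNA of the Dnmt genes, so that they read lower in TKO, and their signs are no separate evidence for it. With this choice Dnmt3b read -2.50 ± 0.19 (SD, n = 3), with Dnmt3a at -2.36 and Dnmt1 at -1.07 on 2 arrays each. Non-uniformity flags took 20.2% of the spots of replicate 3 and left 4751 of the genes tested without a value there, but none of the receptor genes. Of 23 receptor genes that passed the filter on signal, 2 were lower in TKO and 0 higher by limma with Benjamini-Hochberg adjustment over 13403 genes, of which 15.7% were lower and 16.4% higher; at an unadjusted p under 0.05 there were 2. Of the 23, 11 passed the filter in both lines, 10 through J1 alone and 2 through TKO alone, so the filter itself selects on the difference and their median of -0.063 is no result. With no filter the median over 882 receptor genes was -0.012.

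Olfr1383 read -0.42, -0.20 and -0.48 on the 3 arrays, a mean of -0.37 ± 0.15 (SD, n = 3, limma adjusted p of 0.011). Olfr985 read -0.46, -0.25 and -0.37, a mean of -0.36 ± 0.11 (SD, n = 3, limma adjusted p of 0.0091). All 3 arrays were below 0 for both genes. Olfr985 was above background on 3 arrays in J1 and 1 in TKO, so it passed the filter on signal through J1 alone. With no such filter, over 882 receptor genes, the same 2 genes were called lower. Neither passed with median centring in place of loess or without replicate 1, and Olfr1383 did not without replicate 3. Their MeDIP ratios were -0.13 for Olfr1383, which did not pass, and -0.24 for Olfr985, which passed at a limma adjusted p of 0.00013.

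The brightest receptor on the expression arrays, Olfr571, read -0.22, -0.11 and -0.19 on the 3 arrays and did not pass, with a limma adjusted p of 0.13; it was singled out after its values were seen. Of the listed partner genes 8 were tested for RNA, 3 were higher and 1 lower in TKO, where 16.4% and 15.7% of all genes tested were. These few genes are described singly. Lhx2 rose by 0.73 ± 0.11 and Reep1, a receptor transport protein, by 0.27 ± 0.17, while Ric8b, a partner of the olfactory G protein, fell by 0.30 on the log2 scale (SD, n = 3 each). Ddit3, a stress-response factor in receptor feedback, rose by 0.65 on 2 arrays.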

How the data were processed

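The MeDIP arrays gave 1 intensity per probe and channel, deposited by the authors as Agilent Feature Extraction 8.5 output, per the submitters' processing notes. The processed intensity is corrected for background and dye by the scanner software, per the file headers. The authors' deposited tables of log10 ratios served as an alternative. No source used here names the array's build. Each array's log2(green/red) had the median over non-control probes subtracted, was averaged per GeneName (at least 3 probes) and tested against 0 with limma 3.58.1 in R 4.3.3 (lmFit, eBayes), each part apart, with Benjamini-Hochberg adjustment over both. Brightness is the mean over channels of the log2 processed signal minus the array median. Expression arrays had normexp (offset 50) and loess, with the sign of replicate 2 turned, and 22072 of 41174 probes were named through RefSeq accessions. Probes with an outlier flag were left out. The scripts were tested on simulated data. The MeDIP fits recovered 89% of log2 changes of -0.3 on part 1 and 92% on part 2. The expression fit recovered 1% of log2 changes of 0.5 and 37% of changes of 1. Few RNA calls thus do not show that receptor RNA was unchanged.

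Members and lists were chosen with earlier results of these data known. Named are the 8 lowest and 6 highest members with all 7 arrays on that side, listed well studied receptors, the ends of each cluster, members beside the size threshold, called receptor RNAs and up to 4 called partner genes per assay. The replicates are different passages, per the series text, but the labels give replicates 1 and 3 of part 1 the same passage. The number of arrays limits precision. Alternatives were background correction, normalization, centring, dim-probe filters, probe summary, minimum probes, region splitting, slide, the deposited table and leaving out each replicate.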

Additional observations from a re-analysis of the deposited data

Results flagged for a closer look

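Of 43 sets of 7 arrays checked, 3 held an array far from the other 6, and chance flags about 1 in 20. The receptor median of part 2 was 0.031 on replicate 6, apart from the other arrays at -0.24 to -0.13. The median of the cluster Olfr522 to Olfr541 was -0.27 on replicate 2, below the other 6 arrays. Olfr373 read 0.50 on replicate 6, above its other arrays.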

How the results depend on the processing

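The sign of the receptor median depends on the signal processing, of which background and dye correction changed together. Under normexp with median centring the receptor median turned to 0.086, no member was called on the labelled TKO side (0 against 24), 45 and 44 passed at the adjusted p alone, and the difference of brighter members from brighter others was -0.043 against -0.15. With normexp and loess the median was -0.030, the called count 0, the counts at the adjusted p alone 228 and 49, and the brighter difference -0.082. Keeping only probes above background in both channels left 378 members. Their median was -0.094, with 3 called and 192 and 39 at the adjusted p alone. With probes above background in at least 1 channel 474 members remained, of which 12 were called and 36 passed on the labelled J1 side. With the median over probes 13 of 618 were called. With no size threshold 367 and 20 passed. Uncorrected signals put the brightness at -1.23. Centring on the mode, at least 5 probes, split regions, the slide block and the deposited table gave between 22 and 34 calls. Leaving out each replicate gave 23 to 34 calls and medians from -0.18 to -0.16. Apart from the normexp settings and the one with no size threshold, no share over all GeneNames stands beside these counts. They are thus not read against a background.

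Signs turned for 18 of 48 named promoters under some alternative. Under normexp with median centring Olfr893 read 0.047, Olfr173 0.20, Olfr1454 0.071, Olfr589 0.010, Olfr17 0.0053, Olfr558 0.075, Olfr78-Olfr561 0.13, Olfr201 0.085, Olfr323 0.079, Olfr403 0.086, Olfr427 0.018, Olfr738 0.27, Olfr820 0.32 and Olfr850 0.31. Under normexp and loess Olfr323 read 0.017, Olfr738 0.026 and Olfr850 0.0026. Centred on the mode Olfr1394 read -0.037, Olfr424 -0.028 and Olfr536 -0.027. Olfr323 read 0.069 under both background filters and 0.070 with the median over probes, Olfr843 -0.020 with probes above background in both channels, and Olfr738 0.029 with the median over probes. Leaving out each replicate in turn, Olfr1394 ranged from -0.024 to 0.048, Olfr424 from -0.035 to 0.014, Olfr536 from -0.0098 to 0.011 and Olfr738 from -0.11 to 0.069.

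The RNA calls of lower receptors were 5 with processed signals, 0 with median centring, and 0 to 2 when 1 replicate was left out. With flagged spots kept, an alternative chosen after seeing the data, they were 2. A gap of 0.5 Mb gave 17 clusters of at least 10 members and a gap of 2 Mb gave 16. For part 1 the slide block could not be fitted. The ratios already pair the lines within each array. No paired analysis was possible because the replicate numbers are shared only between parts, which carry different promoters and were not compared. Dim probes limit the data: 20 members had no probe above background in both channels on every array, and the cause of the difference between these processings was not tested.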
